A study of Mus musculus with 21 samples.

Results

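The nuclear-encoded genes of the mitochondrial respiratory chain and ATP synthase were examined across primary mouse hepatocytes, wild-type liver cells in culture. The 88 genes were taken by name, as all genes in the data whose mouse symbol begins with Nduf, Uqcr, Sdha to Sdhd, Cox4 to Cox8 or Atp5, and they were 88 of 9657 genes measured. No expression value was used to choose them. By their symbols they comprised 7 core and 31 accessory genes of complex I, 3 of complex II, 8 of complex III, 12 of complex IV, 16 of complex V and 11 assembly factors. Of these, 87 are annotated as protein coding and 1, Cox6c2, as a processed pseudogene. Sdhd, Sdhaf3, Atp5s and the isoform genes Cox4i2, Cox6a2, Cox6b2, Cox7a1, Cox7b2, Cox8b and Cox8c were not analysed here.

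Cells received PBS or an RNAi agent directed against Ttr, the gene of the secreted carrier transthyretin. The agents are known only by the names TTR-1236, TTR-1186 and Reference 4. Each was given at 0.2 µM and 2 µM, RNA was taken on Day 1, and each of the 7 groups held 3 libraries, all of the WT genotype. The labels give no animal age and do not say which libraries share an animal or a culture. The p-values therefore speak of variation among these libraries, part of which may be technical.

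The respiratory chain passes electrons from NADH, through complex I, or from succinate, through complex II, to ubiquinone, then through complex III and cytochrome c to complex IV, which reduces oxygen. Complexes I, III and IV pump protons across the inner mitochondrial membrane, and complex V, the ATP synthase, uses the gradient to make ATP. Most subunits are encoded in the nucleus and imported, while a small set is encoded in mitochondrial DNA, so both genomes supply each complex except complex II. In mammals, the transcription factors NRF1 and GABP are known regulators of many of the nuclear genes.

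Expression was read by QuantSeq, which sequences the 3′ end of polyadenylated RNA, and is given as CPM, counts-per-million, that is reads scaled to the same sum in every library. A 3′ read stands for about 1 transcript whatever its length, so levels of different genes in CPM are not divided by length. Library totals ranged from 14158740 to 37410773 reads. The intended target served as the label check: Ttr lay between 2168 and 2336 CPM in the PBS libraries and between 3.19 and 27.1 CPM in all treated libraries. Of 10 hepatocyte markers 9 were measured, and their summed level was 13900 to 22017 CPM. Of 10 macrophage markers 2 were measured (77.2 to 184 CPM in sum), of 8 endothelial markers 2 (56.7 to 102 CPM), of 8 stellate markers 2 (9.91 to 49.6 CPM), of 5 cholangiocyte markers 2 (24.5 to 48.2 CPM) and of 5 lymphocyte markers 0.

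Libraries stood apart in ways that touched the respiratory chain genes. Reads from the 2 mitochondrial rRNAs made up 3.26% and 2.70% of PBS replicates 1 and 2 and 0.797% of PBS replicate 3. In those libraries the 88 genes summed to 13324, 13775 and 16012 CPM, so PBS replicate 3 lay above the others. In each of the 7 groups the library with the lowest such share had the highest sum. By dose, the mean mitochondrial rRNA share was 1.64% with TTR-1236, 2.78% with TTR-1186 and 2.70% with Reference 4 at 0.2 µM, and 0.412%, 1.59% and 0.767% at 2 µM. Depth also moved with dose for Reference 4, from 14158740 to 14971332 reads per library at 0.2 µM and from 18802476 to 32927430 reads at 2 µM. With TTR-1236 the depths overlapped, at 22662376 to 37410773 and 17753868 to 33815658 reads, as they did with TTR-1186, at 17361422 to 23089411 and 22296414 to 35065348 reads. Results are therefore given beside fits that carry depth or the mitochondrial rRNA share as a covariate, which were chosen after seeing the data.

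Promoter windows from RefSeq (GRCm38.p6), from 250 bases before to 50 after the gene start, were found for 72 of the 88 genes. They were searched on both strands for NRF1 (GCGCATGCG), GABP (CCGGAAG), YY1 (AAGATGGCG) and CREB (TGACGTCA) motifs. NRF1 letters were in 10 of the 72 windows (13.9%), against 4.44% of 6911 windows of all measured genes and 1.95% of all 27025 windows. YY1 letters were in 8 (11.1%, against 4.41% and 1.64%), GABP letters in 19 (26.4%, against 22.7% and 9.93%) and CREB letters in 4 (5.56%, against 3.70% and 2.03%). At least 1 of these motifs was present in 34 windows and none in 38. Windows of 4 genes described below follow, chosen among the 34 that hold a match. Each runs 5′ to 3′ on the gene's strand, with motif letters in capitals. In Atp5g2 and Cox6a1 the NRF1 matches of both strands overlap. Positions give the first base of a match, counted from 0 at the gene start and negative before it. The set shows Atp5g2 (chr15:102670998-102671297, minus strand, NRF1 at -42), Ndufa8 (chr2:36049289-36049588, minus strand, NRF1 at -9), Cox6a1 (chr5:115348909-115349208, minus strand, NRF1 at -162 and GABP at -16) and Cox8a (chr19:7217567-7217866, minus strand, GABP at -5 and 32).
Atp5g2: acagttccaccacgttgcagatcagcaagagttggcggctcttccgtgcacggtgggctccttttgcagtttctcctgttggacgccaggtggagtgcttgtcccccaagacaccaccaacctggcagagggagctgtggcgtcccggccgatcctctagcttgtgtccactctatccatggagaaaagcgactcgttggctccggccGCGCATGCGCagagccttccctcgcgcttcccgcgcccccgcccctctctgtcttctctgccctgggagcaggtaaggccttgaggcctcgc
Ndufa8: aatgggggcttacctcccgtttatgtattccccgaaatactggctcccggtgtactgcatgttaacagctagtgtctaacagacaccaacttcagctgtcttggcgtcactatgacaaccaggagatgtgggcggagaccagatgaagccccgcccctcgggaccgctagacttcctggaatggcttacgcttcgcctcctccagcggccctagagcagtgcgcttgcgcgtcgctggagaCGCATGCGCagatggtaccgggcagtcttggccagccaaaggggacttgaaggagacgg
Cox6a1: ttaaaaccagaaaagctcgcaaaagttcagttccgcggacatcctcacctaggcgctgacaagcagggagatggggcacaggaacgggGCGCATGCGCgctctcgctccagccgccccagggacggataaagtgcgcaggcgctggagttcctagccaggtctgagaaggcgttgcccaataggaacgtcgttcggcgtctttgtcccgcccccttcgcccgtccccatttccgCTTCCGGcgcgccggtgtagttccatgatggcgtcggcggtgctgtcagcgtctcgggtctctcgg
Cox8a: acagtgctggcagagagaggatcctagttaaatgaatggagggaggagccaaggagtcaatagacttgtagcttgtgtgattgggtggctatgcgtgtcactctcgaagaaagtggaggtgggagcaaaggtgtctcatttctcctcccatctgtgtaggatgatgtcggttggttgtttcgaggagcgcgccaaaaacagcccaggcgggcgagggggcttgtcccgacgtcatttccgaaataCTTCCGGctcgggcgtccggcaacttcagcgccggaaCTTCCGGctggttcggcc
These matches describe letters in these windows. Among the 30 genes that rose with dose as described below, 26 had a window and 4 of these held NRF1 letters, 6 GABP letters, 1 YY1 letters and 1 CREB letters.

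The genes were abundant. Their median mean level over the 21 libraries was 125 CPM, against 23.9 CPM for all genes, and 86.8% of all genes lay below that median. None was at 0 in any library, 82 of 88 had a mean of at least 10 CPM, and means ranged from 4.11 to 914 CPM. The ratio of the highest to the lowest library had a median of 1.94 over those 82 genes, against 2.64 over the 7403 genes with the same minimum. These sets were not matched by level, so the ratios do not show that members vary less than genes of like level.

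The highest mean in PBS was that of Cox4i1, a nuclear-encoded subunit of cytochrome c oxidase, which was at 632, 590 and 1215 CPM. Uqcrq, a small subunit of complex III, was at 626, 710 and 950 CPM. Both were highest in PBS replicate 3. Atp5d, the delta subunit of ATP synthase, averaged 578 CPM, Cox6a1 550, Atp5k 447, Ndufa2, of complex I, 436, Cox7a2 427 and Atp5b, the catalytic beta subunit of ATP synthase, 416 CPM. Within complex I the core subunits ran from Ndufv1, which carries the flavin site, at a mean of 174 CPM, to Ndufs1, an iron-sulfur subunit, at 26.4 CPM, and accessory subunits from Ndufa2 to Ndufa1 at 18.7 CPM. Within complex II, Sdhb and Sdha, the catalytic pair, averaged 169 and 107 CPM, and Sdhc, a membrane anchor, 17.6 CPM. Assembly factors ran from Ndufaf3 at 60.9 CPM to Ndufaf6 at 2.86 CPM. Within each complex, transcript levels in CPM thus spanned a wide range.

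**Figure D1:**
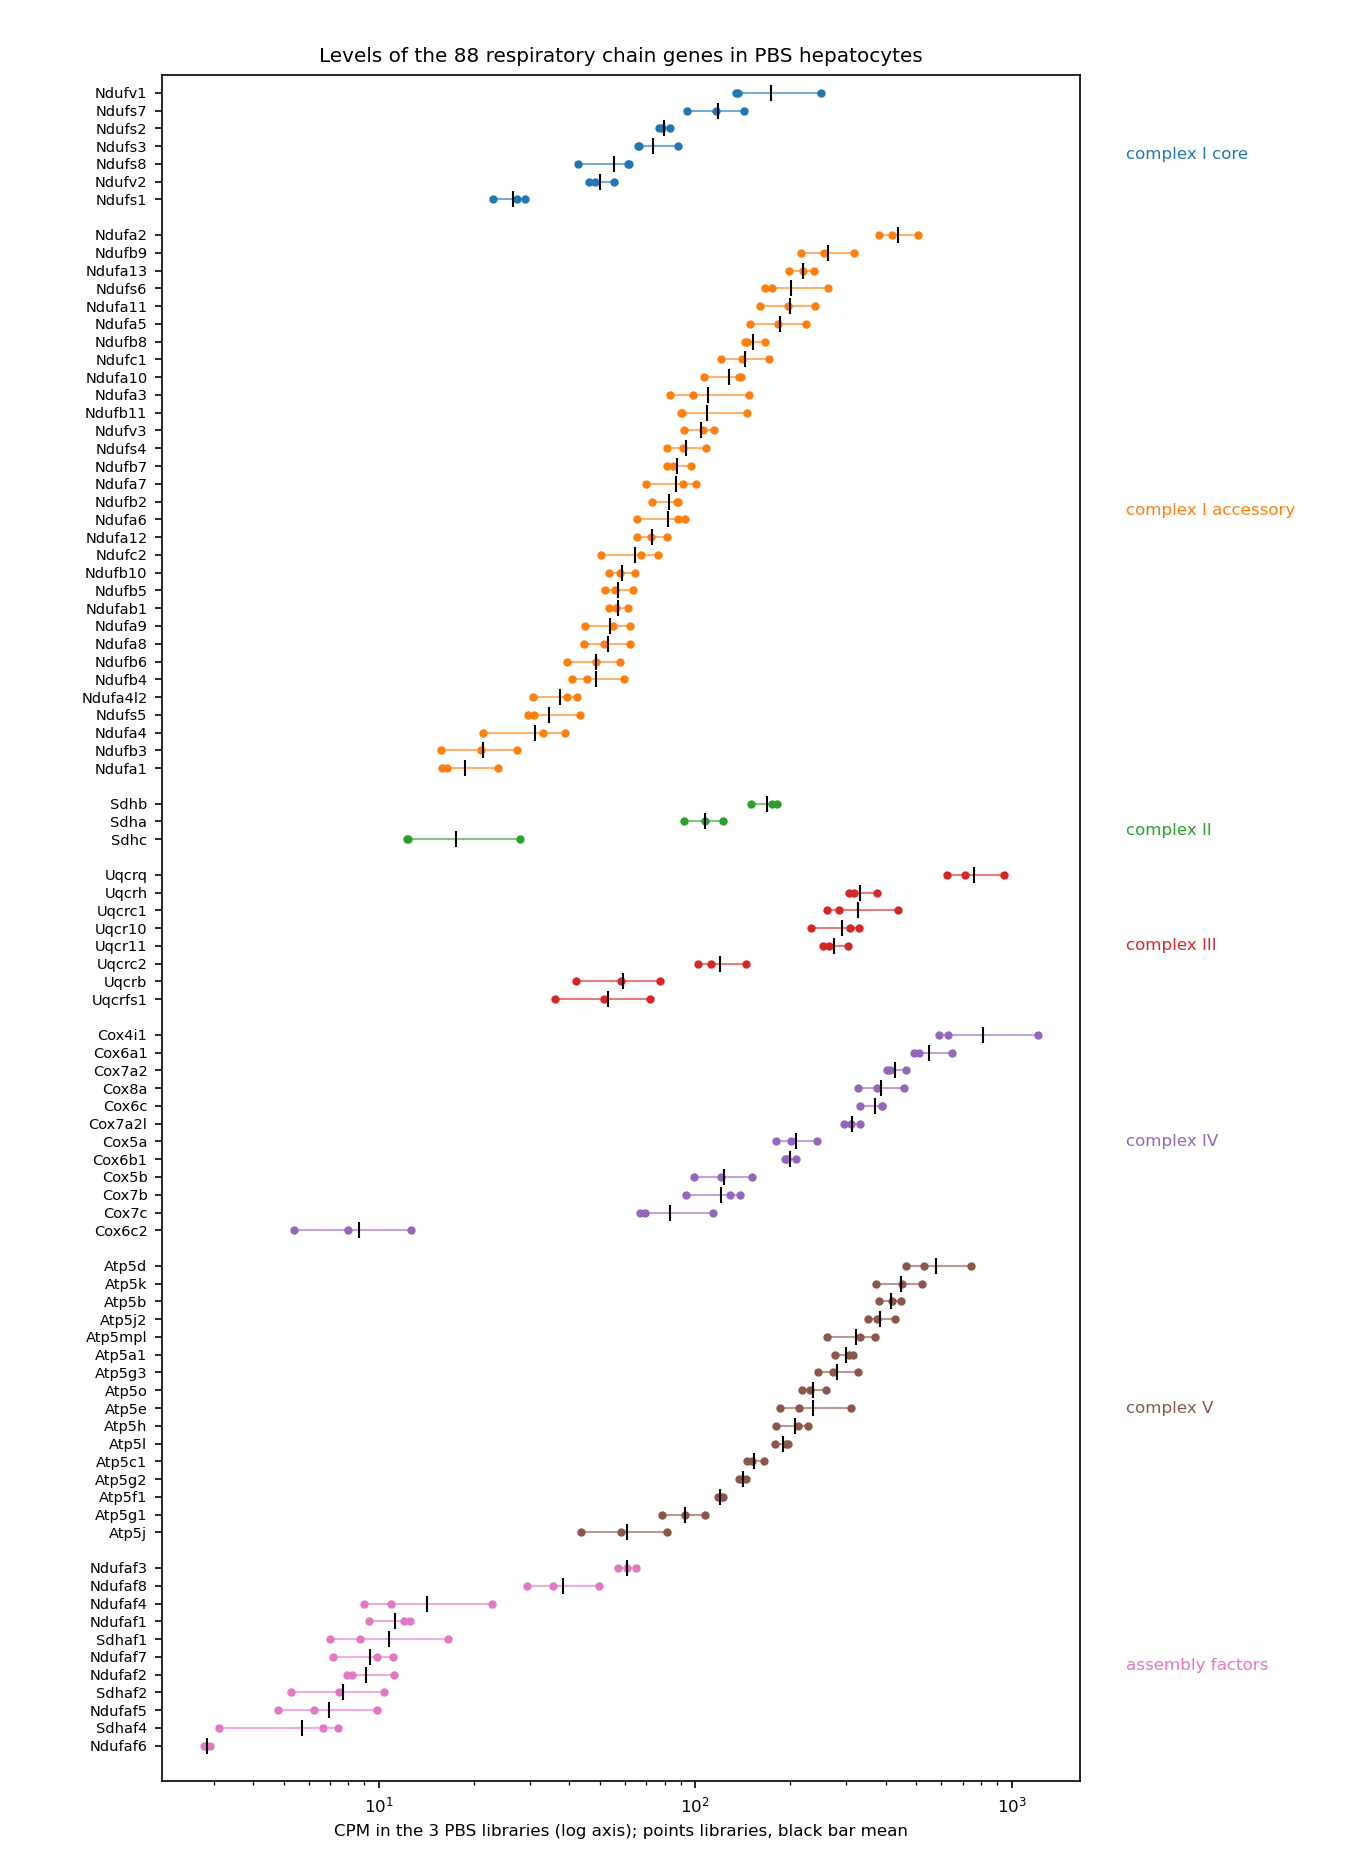
CPM (log axis) of the 88 genes in the 3 PBS libraries, ordered by complex and level; points are libraries, lines their range and black bars the mean. Levels run from Ndufaf6 at 2.86 CPM to Cox4i1 at 812 CPM, with assembly factors at the low end.

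Some subunits are encoded by families of isoform genes. The 3 genes Atp5g1, Atp5g2 and Atp5g3 encode the same mature c subunit of the ATP synthase ring with different import sequences. Their PBS means were 92.9, 141 and 281 CPM, and those libraries did not overlap between genes. Cox7a2 averaged 427 CPM and Cox7a2l, which is known as a supercomplex assembly factor, 313 CPM. Ndufa4, assigned to complex I by name and now known as a subunit of complex IV, averaged 31.1 CPM and its paralog Ndufa4l2 37.4 CPM, with overlapping libraries.

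Values of these families in the treated groups follow, with no test of one family member against another. Atp5g1 was at 92.8, 78.4 and 108 CPM in PBS, and at 117, 152 and 149 CPM with TTR-1236, 137, 111 and 125 CPM with TTR-1186 and 130, 128 and 149 CPM with Reference 4 at 2 µM, each above all PBS libraries. At 0.2 µM Atp5g1 was at 122, 154 and 131 CPM, 108, 161 and 141 CPM, and 106, 81.8 and 170 CPM with the same agents, so the last of these overlapped PBS. None of its differences from PBS at 2 µM passed the threshold (log2 0.42 to 0.58, limma adjusted p 0.093 to 0.536). Atp5g3 was at 272, 328 and 244 CPM in PBS and at 266, 340 and 303 CPM, 282, 426 and 378 CPM, and 239, 298 and 326 CPM at 2 µM, overlapping PBS in each agent. At 0.2 µM Atp5g3 was at 274, 290 and 238.02 CPM, 260, 166 and 231 CPM, and 246, 160 and 167 CPM. Cox7a2 was at 405, 413 and 465 CPM in PBS and at 457, 380 and 472 CPM with TTR-1236, 398, 573 and 374 CPM with TTR-1186 and 367, 415 and 455 CPM with Reference 4 at 2 µM, overlapping PBS throughout. Cox7a2l was at 311, 296 and 332 CPM in PBS, and at 456, 435 and 465 CPM, 376, 252 and 350 CPM, and 445, 391 and 410 CPM at 2 µM, so that only TTR-1186 overlapped PBS. Ndufa4 was at 21.3, 38.8 and 33.1 CPM in PBS and at 42.4, 53.9 and 65.3 CPM, 35.8, 51.9 and 39.0 CPM, and 31.1, 43.2 and 55.2 CPM at 2 µM, while Ndufa4l2 was at 42.2, 30.6 and 39.3 CPM in PBS and 20.4 to 50.7 CPM over the same groups. Between doses Ndufa4 rose and Ndufa4l2 did not pass (pooled log2 difference 0.24, limma adjusted p = 0.321). Cox7a2 and Cox7a2l were at 0.14 and 0.03 in that comparison and did not pass.

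The summed level of the 88 genes was 14370 ± 1439 CPM (SD, n = 3) in PBS. At 0.2 µM it was 15930 ± 380 CPM with TTR-1236, 14936 ± 1202 with TTR-1186 and 14931 ± 688 with Reference 4. At 2 µM it was 17690 ± 1055, 16025 ± 841 and 16945 ± 720 CPM, or 1.23, 1.12 and 1.18 times the PBS mean. Every library of TTR-1236 and Reference 4 at 2 µM lay above all PBS libraries, while TTR-1186 at 2 µM (15308 to 16951 CPM) overlapped them through PBS replicate 3. In bulk RNA, fewer cells of a type and less RNA per cell cannot be told apart. Complex IV had the highest of these ratios, 1.31 with TTR-1236 at 2 µM (4712 ± 365 CPM against 3602 ± 549), followed by 1.25 with Reference 4. Complex II, at 293 ± 38.3 CPM in PBS, was the only complex with a mean below 0.9 of PBS, at 258 ± 21.4 CPM with TTR-1186 and 246.5 ± 7.39 CPM with Reference 4 at 0.2 µM.

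**Figure D2:**
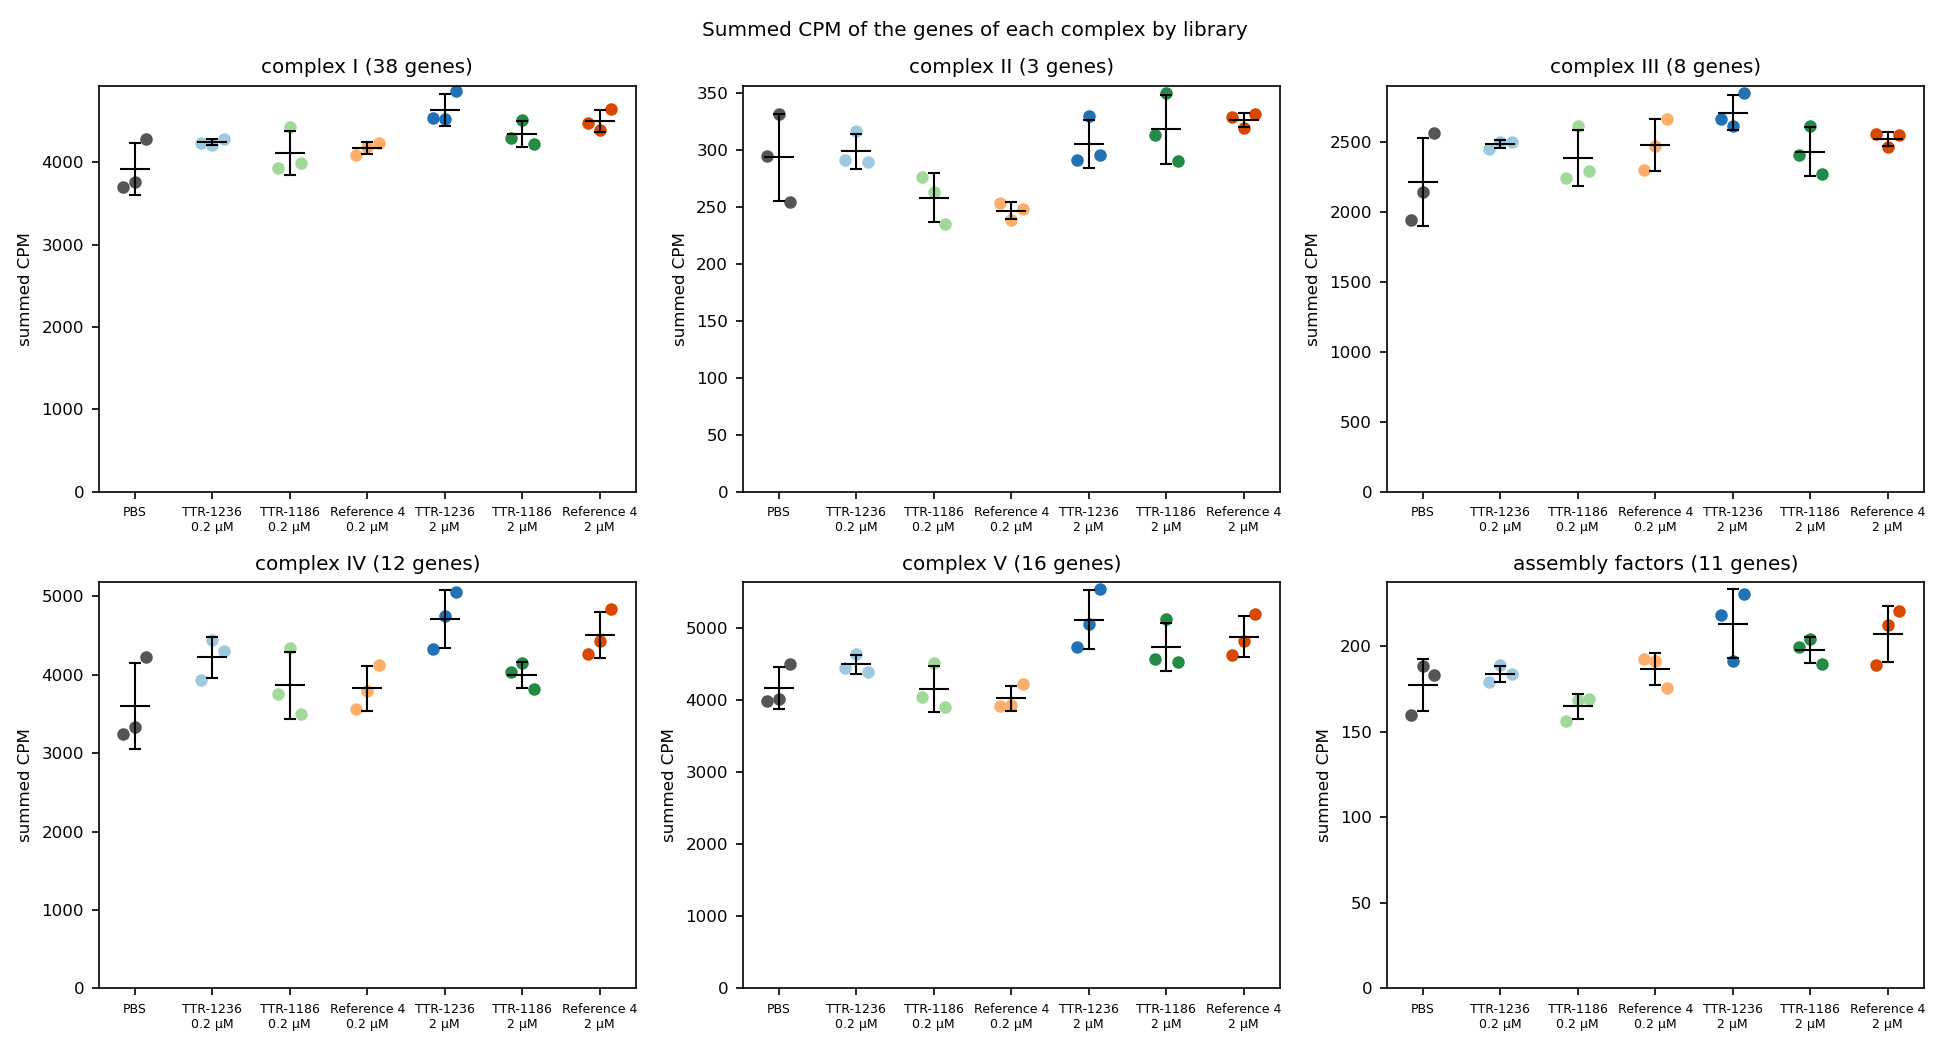
Summed CPM of the genes of each complex in each library by group; points are libraries, black bars mean and SD (n = 3), and axes start at 0. Complex IV is highest with TTR-1236 at 2 µM (4712 CPM against 3602 CPM in PBS), and PBS replicate 3 lies above the other PBS libraries for complexes I, III, IV and V and below them for complex II.

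The question of whether RNAi agents moved these genes was taken first against PBS. With TTR-1236 at 2 µM, 8 of the 88 genes rose and 0 fell (limma on log2(CPM + 1) over all 21 libraries, Benjamini-Hochberg adjusted p under 0.05 over all genes), where 1.44% of all genes rose. Members rose in complex IV (Cox8a, Cox6b1, Cox6a1, Cox7a2l and Cox5b), complex V (Atp5j2 and Atp5l) and complex III (Uqcr10), and none rose in complexes I and II or among assembly factors. Cox8a, a small membrane subunit of cytochrome c oxidase, was at 327, 375 and 459 CPM in PBS and at 528, 611 and 604 CPM with TTR-1236, and the groups did not overlap. Its log2 fold change was 0.60 ± 0.13 (SE, adjusted p = 0.0141). Cox5b, a nuclear subunit that binds zinc, was at 99.1, 120 and 151 CPM in PBS and 145, 178 and 229 CPM with the agent, so its groups overlapped. Uqcr10, a small subunit of complex III, was at 233, 329 and 309 CPM in PBS and 458, 395 and 410 CPM with the agent. Cox6a1, the liver isoform of subunit VIa, was at 491, 511 and 647 CPM in PBS and 728, 803 and 825 CPM with the agent, and Cox6b1, a subunit facing the intermembrane space, at 193, 195 and 209 CPM and 231, 309 and 304 CPM, both without overlap. Cox6a1, Cox6b1, Cox7a2l, Atp5j2 and Atp5l had log2 fold changes of 0.45 to 0.53. The median log2 fold change of all 88 genes was 0.28 against -0.07 over all genes tested, and 78 of 88 were higher than in PBS, against 44.5% of all genes.

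Single libraries decided how many passed: 0 without PBS replicate 1, PBS replicate 2 or TTR-1236 replicate 3, 1 without TTR-1236 replicate 2, 11 without TTR-1236 replicate 1 and 19 without PBS replicate 3. In limma on only the libraries compared 0 passed (edgeR on all libraries gave 11, DESeq2 19), and 3 and 0 passed with depth and with the mitochondrial rRNA share as a covariate. Here and below, shares of all genes called are given only for limma on all libraries without a covariate. Counts under other settings therefore show how calls moved, not an excess among the members. The summed macrophage markers were 79.6 to 101 CPM in PBS, 102 to 157 CPM with TTR-1236 and 128 to 157 CPM with Reference 4 at 2 µM, and their part in the result was not tested. Several members with larger differences missed the threshold. Sdhaf1, an assembly factor of complex II, was at 6.98, 8.69 and 16.6 CPM in PBS and 30.8, 13.8 and 25.7 CPM with TTR-1236, groups that overlapped (log2 difference 1.07, limma adjusted p = 0.056). Cox7c was at 0.89 and Ndufa4 at 0.79, neither past the threshold. The lowest value was that of Ndufaf5, a complex I assembly factor, at -0.55 (adjusted p = 0.48).

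With Reference 4 at 2 µM the single member past the threshold was Atp5g2, with a log2 fold change of 0.76 ± 0.17 (limma adjusted p = 0.0219), where 0.59% of all genes rose. Atp5g2 was at 145, 141 and 138 CPM in PBS and at 229, 218 and 277 CPM with Reference 4, and the groups did not overlap. Cox8a, at 523, 500 and 587 CPM, had an adjusted p of 0.0513 in limma. The median of the 88 genes was 0.26 against -0.03 over all genes, and 74 of 88 were higher, against 47.3% of all genes. Without PBS replicate 1 or 2, or Reference 4 replicate 1 or 3, 0 were called (limma; 25 of the 88 had an unadjusted p under 0.05 with all libraries, and edgeR called 3 and DESeq2 7), and 11 without PBS replicate 3. Of all 9657 genes, 1954 had such an unadjusted p with all libraries. With depth or the mitochondrial rRNA share as a covariate 0 were called.

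With the other 4 treated groups against PBS, none of the 88 passed the threshold in limma. At 0.2 µM, 8 had an unadjusted p under 0.05 with TTR-1236 (0.0207% of all genes called), 11 with TTR-1186 (0.0311% called) and 19 with Reference 4 (0.166% called), and 7 with TTR-1186 at 2 µM (0.0518% called). Of all 9657 genes, 665, 928, 1426 and 890 had such an unadjusted p, in the same order. edgeR and DESeq2 also called 0 of the 88 in these comparisons. Medians were 0.16 with TTR-1236, -0.01 with TTR-1186 and -0.03 with Reference 4 at 0.2 µM, and 0.18 with TTR-1186 at 2 µM. Over all genes they were -0.004, -0.05, -0.05 and -0.01. In the same order 71, 43, 40 and 76 of 88 were higher than in PBS, against 49.3%, 44.7%, 44.6% and 48.5% of all genes. Comparisons with PBS share its libraries, and the values stand side by side for that reason. Without PBS replicate 3, 4 were called with Reference 4 at 0.2 µM. With all treated groups together against PBS, 0 were called in limma (17 with an unadjusted p under 0.05, 0.0725% of all genes called, 0 by edgeR and DESeq2) and 9 without PBS replicate 3. Of all 9657 genes, 1289 had such an unadjusted p with all libraries.

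The dose comparison gave the most calls. Between 0.2 µM and 2 µM, averaged over the 3 agents, 30 of the 88 genes rose and 0 fell, where 8.8% of all genes rose. The rises took in 11 accessory subunits and 1 core subunit of complex I, 9 of complex V, 6 of complex IV, 1 each of complexes II and III, and 1 assembly factor. The median log2 difference of the 88 was 0.17 against -0.01 over all genes tested. At 2 µM 75 of 88 were higher, against 49.3% of all genes. By complex the medians were 0.26 for complex V, 0.22 for complex IV, 0.17 for complex I, 0.27 for the 3 genes of complex II, 0.08 for complex III and 0.12 for assembly factors.

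In complex I, Ndufa1, a small accessory subunit of the membrane arm, had the largest log2 difference of the 88, 1.11 ± 0.26 (limma adjusted p = 0.00623). Its level was 20.8, 31.4 and 19.2 CPM with TTR-1236 at 0.2 µM and 14.5, 35.2 and 11.6 CPM at 2 µM. With TTR-1186 it went from 16.1, 3.28 and 9.58 CPM to 24.0, 23.2 and 32.5 CPM. With Reference 4 it went from 9.18, 6.48 and 4.25 CPM to 15.4, 39.9 and 46.2 CPM. Doses did not overlap for TTR-1186 and Reference 4. For TTR-1236 they overlapped and the difference had the opposite sign, -0.34 ± 0.46, so the pooled value averages unlike signs. Ndufa8, an accessory subunit on the intermembrane space side, went from 40.6, 27.6 and 39.5 CPM to 48.7, 72.8 and 54.2 CPM with TTR-1186. With Reference 4, Ndufa8 went from 33.1, 24.2 and 34.3 CPM to 58.6, 65.9 and 70.5 CPM. With TTR-1236 it went from 55.4, 55.6 and 51.6 CPM to 56.1, 71.4 and 69.9 CPM, and in none of the agents did the doses overlap. Its log2 difference was 0.68 ± 0.12 (limma adjusted p = 7.76e-04). Ndufb3, Ndufa4, Ndufc2, Ndufb4, Ndufs5, Ndufb2, Ndufa6 and Ndufb5 rose by 0.34 to 0.92, and Ndufab1, the mitochondrial acyl carrier protein, by 0.28. Of the core subunits only Ndufs3 passed, at 0.28 ± 0.08 (adjusted p = 0.0232), while Ndufv1 was at -0.003.

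In complex II, Sdhb, the iron-sulfur subunit, rose by 0.32 ± 0.08 (limma adjusted p = 0.0121). In complex III, Uqcrb, a small subunit near the ubiquinone site, rose by 0.46 ± 0.13 (adjusted p = 0.0140), and the 7 others did not pass. In complex IV, Cox7c, a small membrane subunit, had the largest difference, 0.99 ± 0.23 (adjusted p = 0.00643). Cox7c was at 126, 210 and 122 CPM with TTR-1236 at 0.2 µM and 70.8, 242 and 196 CPM at 2 µM, an overlap. With TTR-1186 it was at 97.4, 45.2 and 76.4 CPM and then 128, 148 and 148 CPM, and with Reference 4 at 52.6, 42.4 and 58.0 CPM and then 117, 230 and 289 CPM, with no overlap in either. Cox5a, Cox7b, Cox5b, Cox6b1 and Cox6a1 also rose, by 0.24 to 0.56. Cox4i1 was at -0.19 ± 0.12 and did not pass (adjusted p = 0.280).

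In complex V, Atp5g2 rose by 0.59 ± 0.10 and Atp5g3 by 0.50 ± 0.11 (limma adjusted p = 5.91e-04 and 0.00444), while their sister gene Atp5g1 was at 0.05 (95% interval -0.19 to 0.30). The difference among the 3 c-subunit genes was not tested. Atp5b rose by 0.47 ± 0.11, and Atp5a1, the alpha subunit, by 0.28 ± 0.08. Of the stalk and membrane subunits Atp5c1, Atp5f1, Atp5j, Atp5l and Atp5mpl rose by 0.24 to 0.43. Ndufaf3, a complex I assembly factor, rose by 0.32 ± 0.10. The member lowest in this comparison was Ndufa12 at -0.31 ± 0.14 (adjusted p = 0.124).

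**Figure D3:**
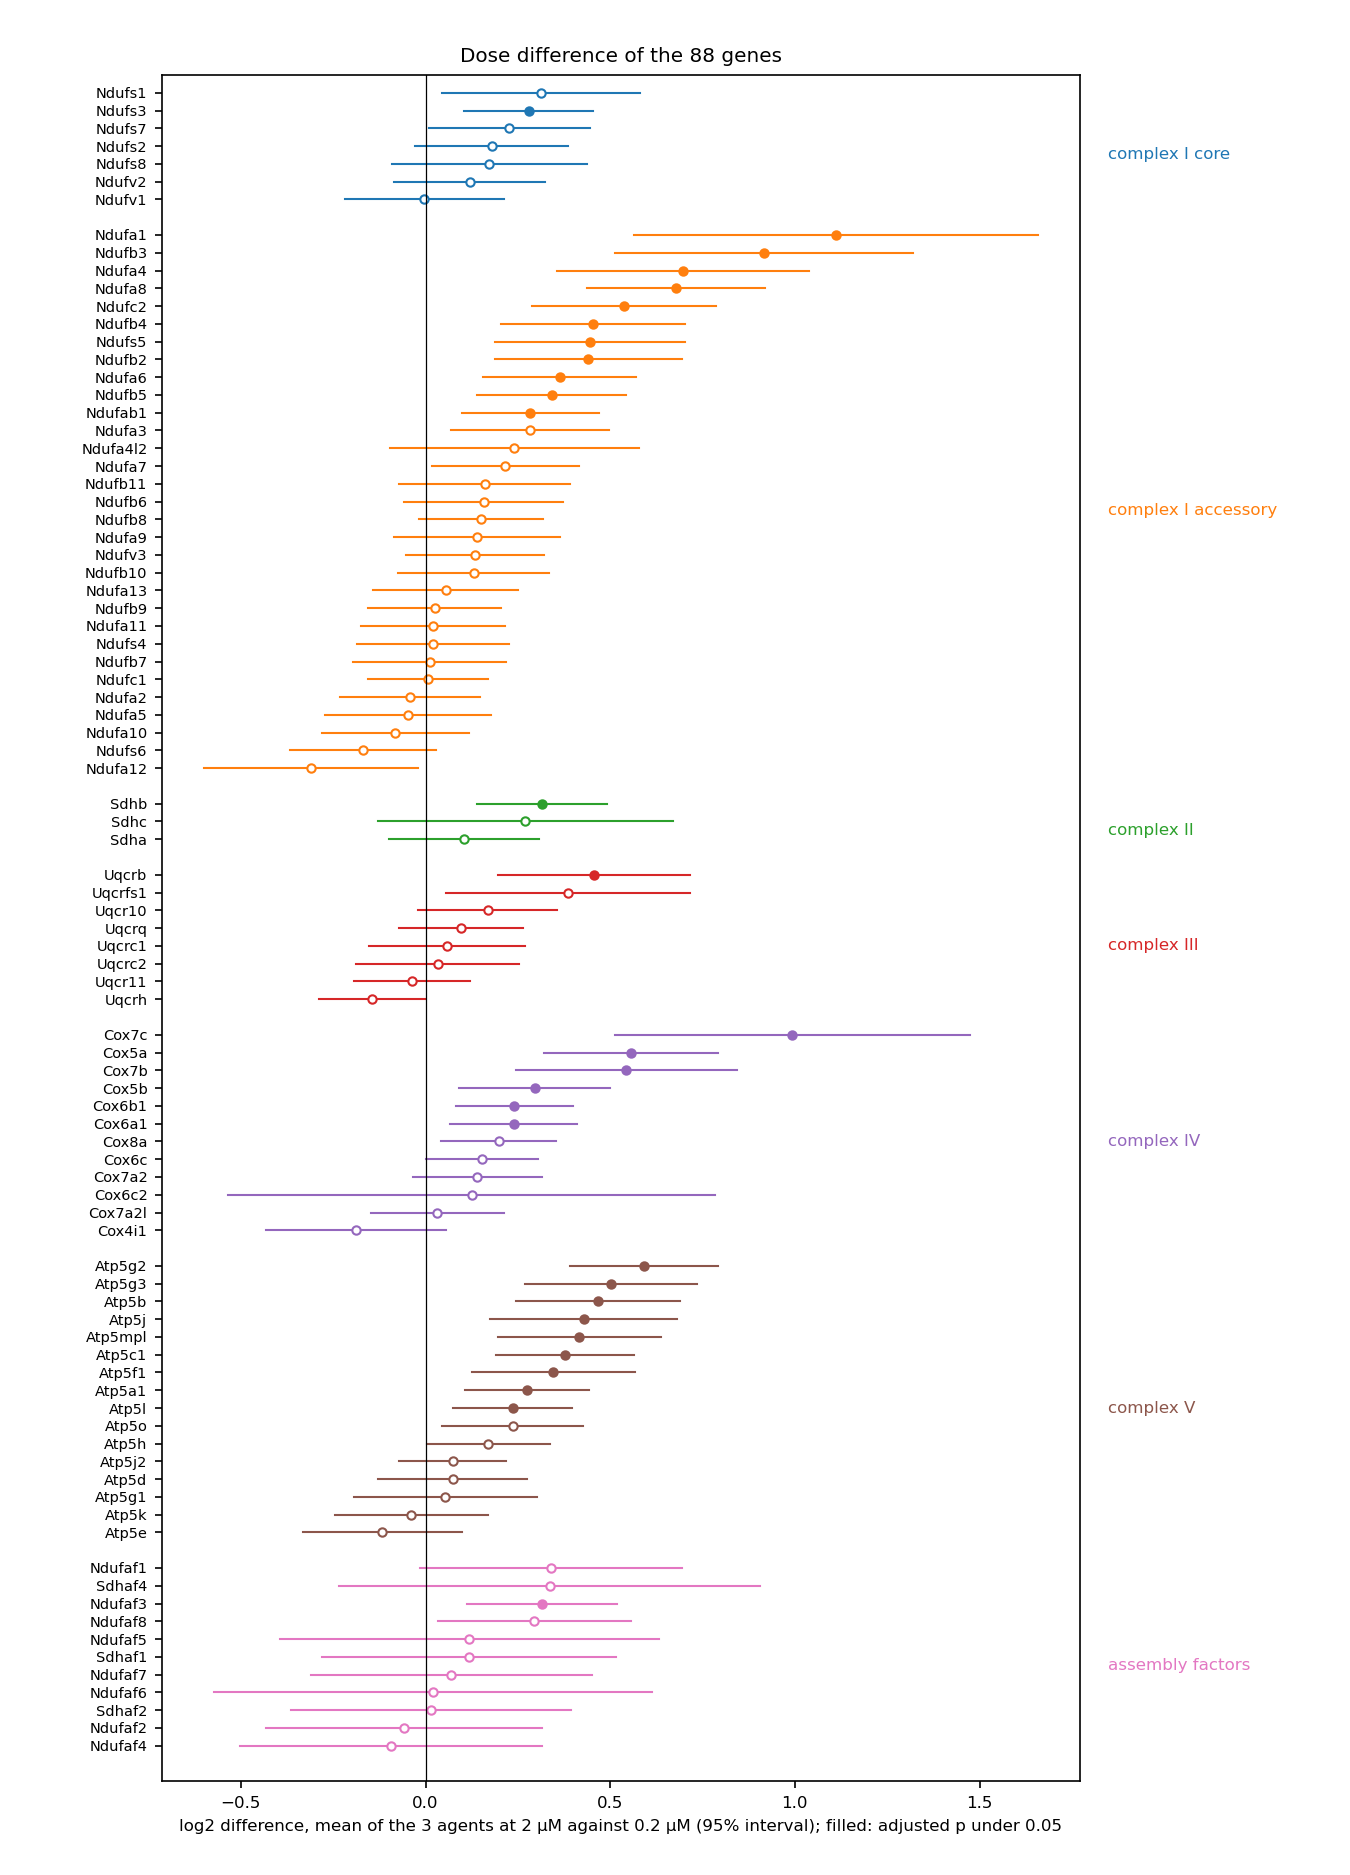
Log2 difference of each of the 88 genes between 2 µM and 0.2 µM, as a mean over the 3 agents, with 95% intervals; filled points passed the threshold. The 30 filled points all lie above 0, with Ndufa1 highest at 1.11.

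**Figure D4:**
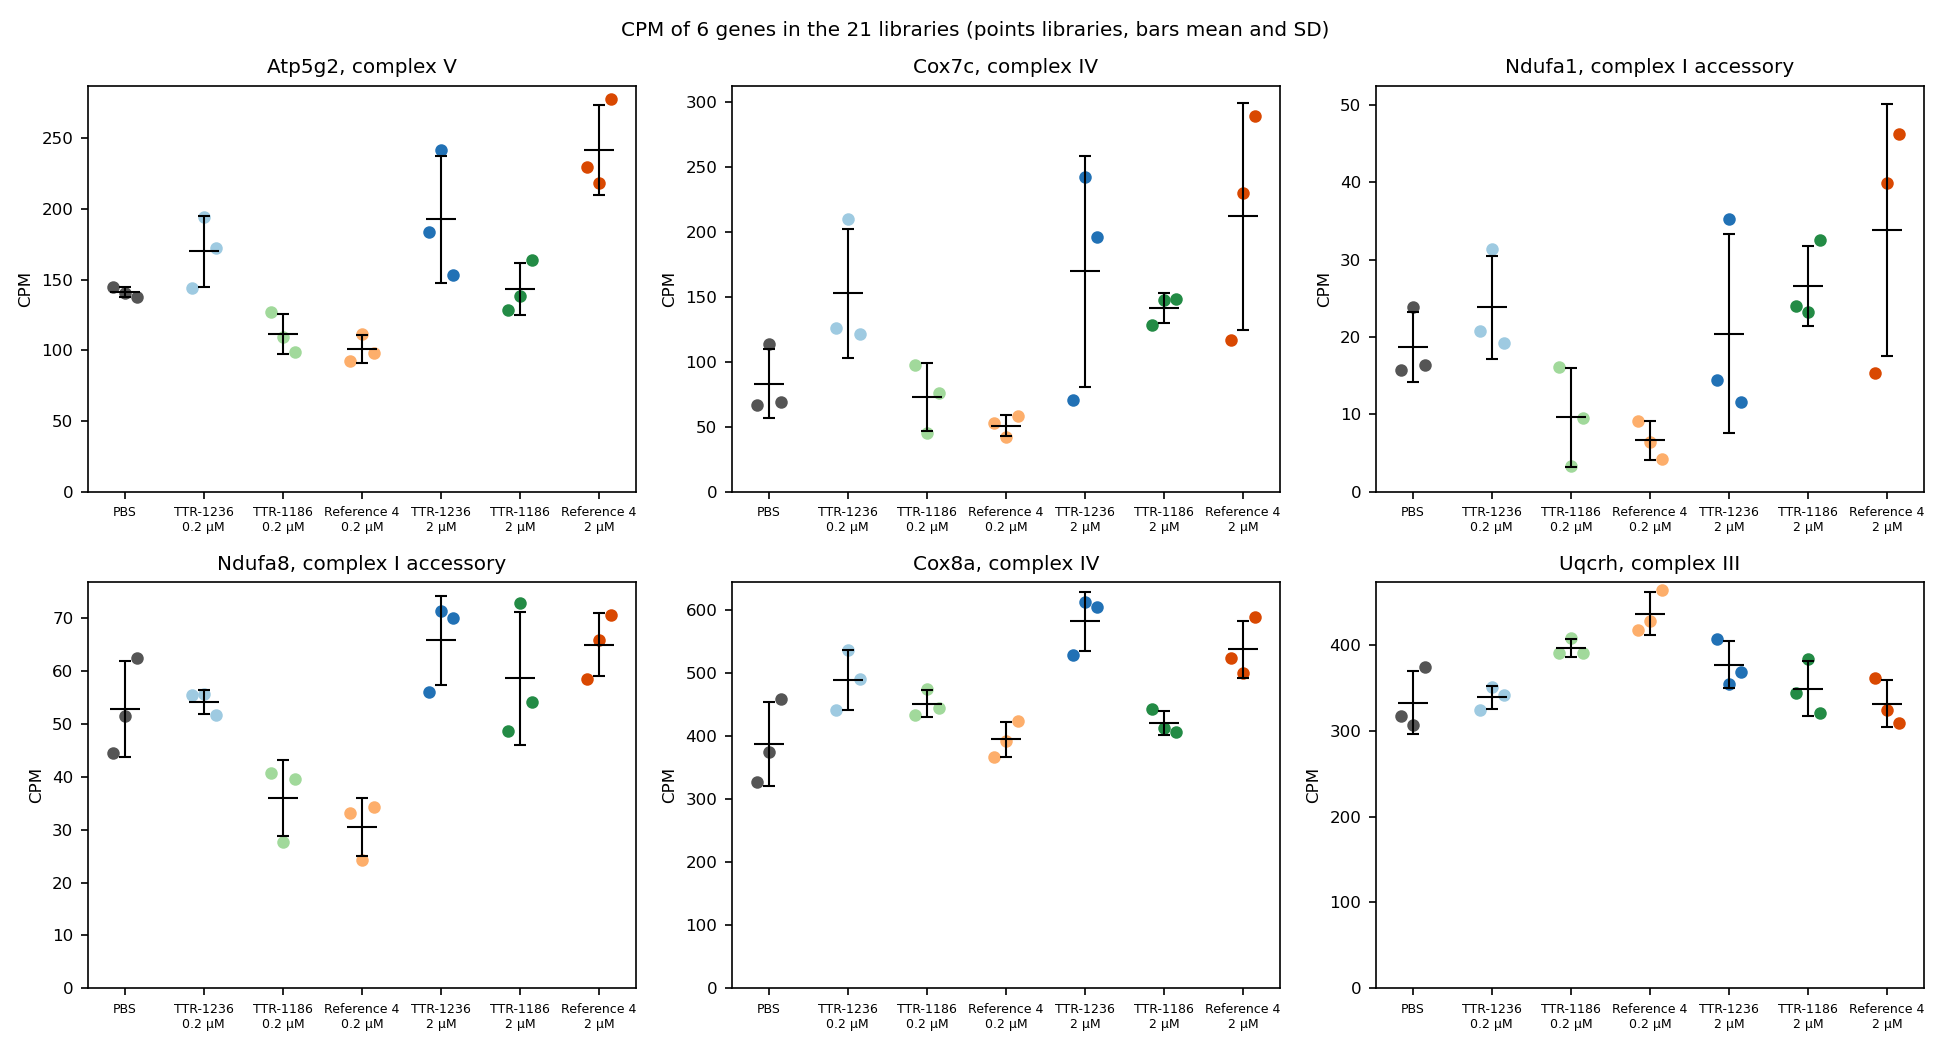
CPM of 6 genes in all 21 libraries by group; points are libraries, black bars mean and SD (n = 3), axes start at 0. Atp5g2 reaches 229, 218 and 277 CPM with Reference 4 at 2 µM, above all other groups except 1 TTR-1236 library, and Uqcrh is highest with Reference 4 at 0.2 µM.

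By agent, Reference 4 carried most of the calls: 20 genes rose and 1 fell at 2 µM against 0.2 µM, where 6.78% of all genes rose and 6.05% fell. The same test gave 0 members with TTR-1236 (4 at an unadjusted p under 0.05, 0.135% of all genes called, DESeq2 0) and 0 with TTR-1186 (22 at an unadjusted p under 0.05, 0% of all genes called, DESeq2 1). Of all 9657 genes, 1112 with TTR-1236 and 1415 with TTR-1186 had such an unadjusted p. Whether the dose difference of Reference 4 differs from that of the other agents was not tested. The largest rises with Reference 4 were those of Ndufa1 at 2.101 ± 0.457 and Cox7c at 1.95 ± 0.40. Atp5g2 had the smallest adjusted p, with a log2 difference of 1.25 ± 0.17 (limma adjusted p = 2.54e-04); it was at 92.3, 112 and 98.4 CPM at 0.2 µM. Ndufb3 rose by 1.54, Ndufa8 by 1.08 and Ndufa4 by 1.047. For several of these genes the 0.2 µM libraries also lay below PBS. The genes were picked by their rise from those same libraries, so a low level there is partly built into the choice. With Reference 4 at 0.2 µM all libraries were below all PBS libraries for Ndufa1 (4.25 to 9.18 CPM against 15.8 to 23.9), Ndufa8 (24.2 to 34.3 against 44.5 to 62.4) and Atp5g2 (92.3 to 112 against 138 to 145). Their log2 differences from PBS there were -1.40, -0.77 and -0.49, and none passed the threshold (limma adjusted p = 0.166, 0.0972 and 0.188). In all, 10 members lay wholly below and 4 wholly above PBS with Reference 4 at 0.2 µM, against 10.5% and 4.20% of all genes. With TTR-1186 at 0.2 µM these were 8 and 6 members, against 9.60% and 3.92%. For both agents the count wholly below PBS is near the share of all genes, and nothing is read from it. Uqcrh, the acidic hinge subunit of complex III, fell by 0.40 with Reference 4 between doses (limma adjusted p = 0.0325). It went from 417, 428 and 464 CPM to 361, 325 and 308 CPM, with no overlap. This call held in 1 of 6 fits without 1 library and in 6 of 11 other settings. It was lost with edgeR, with TMM-rescaled CPM and with either covariate. Libraries of 38 members lay wholly above and of 5 wholly below at 2 µM, against 17.1% and 16.8% of all genes. Of the 20 risen members, 18 (90.0%) were also among the 30 of the pooled comparison (60.0% of those), with which they share libraries.

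The number of these calls changed when a library was left out or a covariate was added. Because depth and the mitochondrial rRNA share also differed between doses, fewer calls under a covariate do not by themselves show its part. In the pooled comparison 22 to 33 members were called when any 1 library was left out, 7 with log2 total reads as a covariate and 0 with the mitochondrial rRNA share as one. For Reference 4, 4 were called without replicate 3 at 2 µM, 8 without replicate 2 at 2 µM, 9 without replicate 2 at 0.2 µM, 14 without replicate 3 at 0.2 µM, 1 with the depth covariate (Atp5g2) and 3 with the mitochondrial rRNA share (Atp5g2, Ndufa1 and Ndufb3). The summed hepatocyte markers were 15024 to 18121 CPM with Reference 4 at 0.2 µM and 19097 to 22017 CPM at 2 µM. Within groups, 0 of 9657 genes (0%) had a slope on log2 total reads past the threshold (672 at an unadjusted p under 0.05, 5 of the members). On the mitochondrial rRNA share 12.6% did, among them 7 members. Their slopes were negative for Uqcrq, Cox7a2, Atp5mpl, Atp5o and Cox6a1 and positive for Ndufa12 and Ndufa10. Of all genes 2403 had an unadjusted p under 0.05 for that slope in limma, 27 of them members. The median slope was -0.07 over the members and 0.04 over all genes. The part of these measures in the dose result was not tested.

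At matched dose, the 6 comparisons between agents gave a single member. At 2 µM, Atp5g2 was lower with TTR-1186 than with Reference 4, at 128, 138 and 164 CPM against 229, 218 and 277 CPM, with no overlap. The log2 difference was -0.75 ± 0.17 (95% interval -1.10 to -0.40, limma adjusted p = 0.0477), where 0.145% of all genes fell. Leaving out any of the 6 libraries ended this call (adjusted p 0.075 to 0.246). Against TTR-1236 at 2 µM, where Atp5g2 was at 184, 241 and 153 CPM, the difference of TTR-1236 from Reference 4 was -0.34 (95% interval -0.69 to 0.005) and did not pass. That pair had 0 members called (1 at an unadjusted p under 0.05, against 288 of 9657 genes, and 0% of all genes called). TTR-1236 against TTR-1186 at 2 µM had 0 (7 unadjusted, against 1526 of 9657 genes, 0.342% of all genes called, DESeq2 1). At 0.2 µM, 0 were called in limma for TTR-1236 against Reference 4 (25 unadjusted, DESeq2 7), TTR-1186 against Reference 4 (1 unadjusted) and TTR-1236 against TTR-1186 (14 unadjusted), and 0% of all genes were called in each. An unadjusted p under 0.05 was held by 1351, 475 and 685 of all 9657 genes in these comparisons, in the same order. edgeR called 0 in these. Libraries of 28 members were wholly higher with TTR-1236 than Reference 4 at 0.2 µM, against 15.1% of all genes. A missed threshold does not show that agents act alike.

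The base composition of the transcript ends, which the naming rule did not use, was examined after seeing the data. The longest transcript annotated for each gene in GENCODE vM21 was used, such as 4715 bases for Atp5g1 and 4371 for Ndufb2. Whether its end is the one sequenced in these cells was not established. Of the 30 members with less than 40% GC in the last 200 transcript bases, 17 rose with dose in the pooled comparison and their median log2 difference was 0.34. Of the 58 members with at least 40% GC, 13 rose and the median was 0.14. Among all genes, 299 of 3995 under 40% GC rose (7.48%, median -0.05) and 543 of 5627 at or above it (9.65%, median 0.02). Across the 88 genes Spearman's rho between that GC share and the log2 difference was -0.38, and across 9622 genes it was 0.10; genes share libraries and are not independent replicates. Transcript length gave a rho of -0.32 with the pooled log2 difference across the 9622 genes, so shorter transcripts tended to be higher at 2 µM. Across the 88 genes that rho was -0.12. The part of length in the members' rise was not tested. With TTR-1236 at 2 µM against PBS the members' rho was 0.001, with medians of 0.30 under 40% GC and 0.28 at or above it. The lowest GC shares were those of Ndufs1 (27.5%), Uqcrfs1 (29.5%), Ndufab1 (30%), Uqcrc2 (31%) and Ndufaf6 (31.5%), of which only Ndufab1 passed in the pooled comparison. The largest pooled differences belonged to Ndufa1 (36%), Cox7c (32.5%) and Ndufb3 (32%), and the member with the highest GC share, Atp5g2 (63.5%), also rose.

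**Figure D5:**
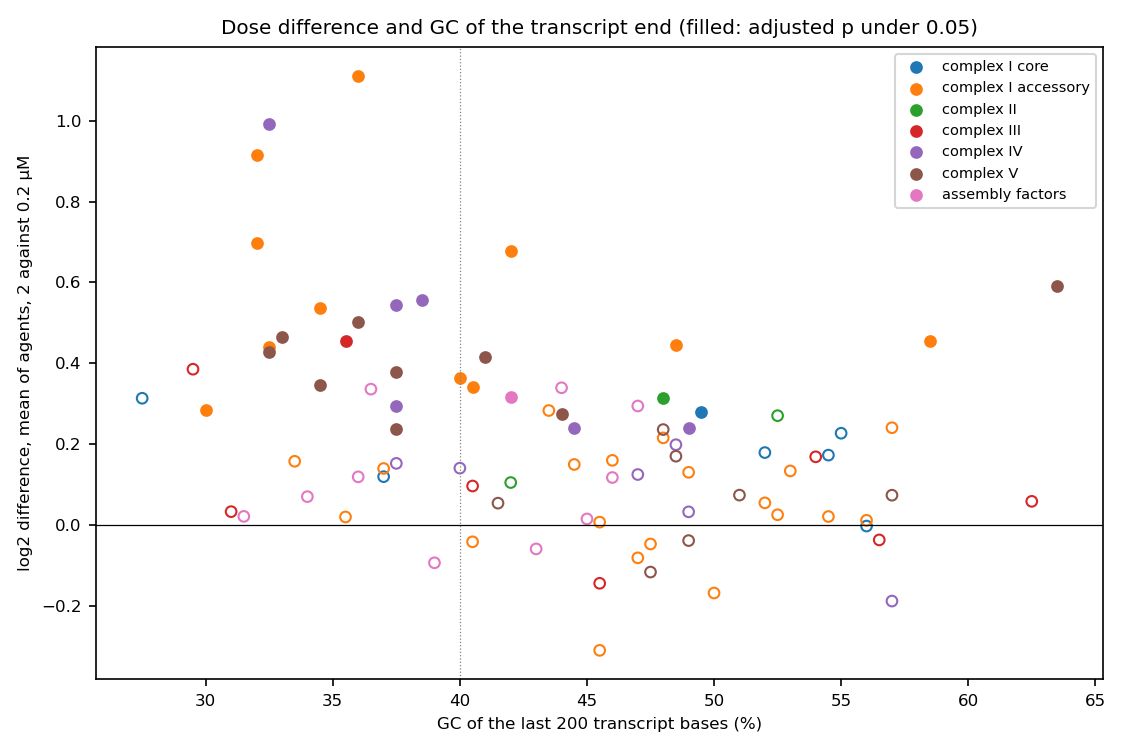
GC of the last 200 bases of the longest annotated transcript (percent) against the pooled dose difference (log2) of the 88 genes. Points are coloured by complex and filled where past the threshold, and the dotted line marks 40%. Below it 17 of 30 points are filled, at or above it 13 of 58.

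Genes that work with the members were read as lists, against 8.8% of all genes risen and 10.1% fallen in the pooled dose comparison. There 5 of 18 genes of the tricarboxylic acid cycle and the pyruvate dehydrogenase complex rose and 0 fell. The risen genes were Fh1, fumarate hydratase, by 1.31, Idh3b by 0.68, Dlat, of pyruvate dehydrogenase, by 0.48, Dlst by 0.44 and Suclg1 by 0.31. The pooled value of Fh1 averages unlike signs. Its dose difference was -0.93 with TTR-1236 and 1.72 with TTR-1186, neither past the threshold, while with Reference 4 it rose past it. The list median was 0.15 against -0.01 over all genes. Of 13 subunits encoded by mitochondrial DNA 0 rose and 2 fell, mt-Nd5 by 0.91 and mt-Nd2 by 0.54, with a median of -0.11. The medians by agent had different signs, a difference that was not tested. With Reference 4 the median of the 13 was 0.13, with mt-Atp6, mt-Nd3 and mt-Cytb risen by 0.73 to 0.78 and mt-Nd5 fallen by 0.96. With TTR-1236 the median was -0.37, with 1 of 13 higher at 2 µM, and with TTR-1186 -0.05, and limma called 0 of 13 in each (4 and 3 at an unadjusted p under 0.05). Over all 9657 genes, 1112 and 1415 had such an unadjusted p. Among 42 further nuclear genes of the chain and its assembly 2 rose (Usmg5, an ATP synthase subunit, and Ecsit, a complex I assembly factor) and Pet117, a complex IV assembly factor, fell by 1.74. Of 12 ubiquinone synthesis genes Coq8b fell, and of 18 regulators Ncor1 and Gabpb2, a GABP subunit, fell. Counts of 1 or 2 genes in these last 3 lists are near or below what the shares of all genes give, and nothing is read from them. Each of these lists was chosen with earlier results of these data known.

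For some members the value may include reads of an overlapping gene, because the strand setting of the counting is not given in the sources used here. Pdzd9 matched Uqcrc2 at a ratio of 0.980 to 1.00 in all libraries and Gm26631 matched Cox5a at 0.978 to 1.04, so neither member can be separated from its neighbour. Smim27 was at 1.02 to 1.16 times Ndufb6, Impdh2 at 0.802 to 1.07 times Ndufaf3, and Mrpl47 at 0.680 to 1.48 times Ndufb5. The rises of Cox5a, Ndufaf3 and Ndufb5 carry that uncertainty.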

How the data were processed

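The data are 21 QuantSeq 3′ libraries. The submitters' processing notes name the trimmer cutadapt 1.15, the aligner HISAT2 2.1.0, the counter featureCounts and the mouse build mm10, without strand setting or annotation release. Each deposited table holds CPM for 9657 genes, which the authors scaled to the same sum in every library. All values were whole multiples of 1 read within 0.001 reads, which gave back read counts and totals of 14158740 to 37410773. The worth of 1 read was taken from the smallest gap between values of a library, because the lowest value above 0 was more than 1 read in 9 of 21 libraries. Totals, the depth covariate, edgeR and DESeq2 rest on this step.

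Symbols came from GENCODE vM21 (9652 of 9657 matched). Tests used limma 3.58.1 in R 4.3.3 on log2(CPM + 1), 7 group means, trended and robust variances and no covariate; fold changes on this scale understate low genes. Adjustment was Benjamini-Hochberg over all 9657 genes, threshold 0.05, in 17 comparisons. Alternatives were edgeR 4.0.16 and DESeq2 1.42.0 on recovered reads, TMM-rescaled CPM, pseudocounts 0.5 and 5, a minimum mean of 10 CPM, only the libraries compared, the replicate block, each library left out, and, chosen after seeing the data, 2 covariates (log2 total reads and log2 mitochondrial rRNA share). Named were members past the threshold, the 3 highest and the lowest of each complex in PBS, the 3 largest rises and falls per agent at 2 µM against PBS, and isoform families, 62 in all, of which those that carry the results are described and the rest counted. Simulated data with known changes were used to check the limma script. Even the closest pair of replicates differed by more than counting noise (chi-square 25.1 per degree of freedom), so no library was merged. The members and lists were chosen with earlier results of these data known. Totals limit precision by counting error only.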

Additional observations from a re-analysis of the deposited data

Results flagged for a closer look

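Atp5g2 differed between agents at the same dose: at 2 µM its level against PBS was lower with TTR-1186 than with Reference 4, by a log2 difference of -0.75 (limma adjusted p = 0.0477). All 3 TTR-1186 libraries, at 128, 138 and 164 CPM, lay below the Reference 4 libraries at 229, 218 and 277 CPM. The call was lost without any 1 of the 6 libraries (limma adjusted p 0.075 to 0.246), with only the libraries compared (0.0594), with the replicate block (0.0627) and with the mitochondrial rRNA share as a covariate (0.0614).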

How the results depend on the processing

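Directions of the 61 member calls reversed in 2 cases, both in the pooled dose comparison with the mitochondrial rRNA share as a covariate: Cox5b at -0.011 and Cox6a1 at -0.055. Of the calls under other settings 534 held and 135 lost the threshold; with 1 library left out 556 held and 170 lost it. The cause was not tested.

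Counts of members called moved as follows, given without the share of all genes called in the same settings. TTR-1236 at 2 µM against PBS (8) gave 19 with DESeq2, 0 with only the libraries compared, 3 with the depth covariate and 0 with the mitochondrial rRNA covariate, and 0 to 19 without 1 library. Reference 4 at 2 µM against PBS (1) gave 3 with edgeR under either scaling, 7 with DESeq2, 2 with TMM-rescaled CPM, 2 with a pseudocount of 5, 2 with the minimum of 10 CPM, 0 with only the libraries compared, 0 with either covariate, and 0 to 11 without 1 library. TTR-1236 against Reference 4 at 0.2 µM (0) gave 7 with DESeq2, 9 with only the libraries compared and 1 with the mitochondrial rRNA covariate. TTR-1186 against Reference 4 at 2 µM (1) gave 0 with only the libraries compared, 0 with the mitochondrial rRNA covariate and 0 without any 1 library. At 2 µM, TTR-1236 against TTR-1186 (0) gave 1 with DESeq2, and TTR-1186 between doses (0) also 1. Reference 4 between doses (21) gave 1 and 3 with the depth and mitochondrial rRNA covariates and 4 to 21 without 1 library; the pooled dose comparison (30) gave 7 and 0, and 22 to 33 without 1 library. Without 1 library the counts reached 1 for TTR-1186 at either dose against PBS, 4 for Reference 4 at 0.2 µM and 9 for all treated groups, from 0. Where a library was left out, the remaining pair is assumed to vary like the other groups.

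Same-numbered libraries of different groups correlated at a median r of 0.02 (-0.39 to 0.29 over 63 pairs, 18 over 0.1), and 7 of 21 libraries correlated best with their own number. These values do not show a pairing by number and cannot exclude one, so the main fit used none. With the replicate block, Reference 4 at 2 µM against PBS gave 2 members and TTR-1186 against Reference 4 at 2 µM gave 0; the pooled dose comparison gave 31, Reference 4 between doses 19 and TTR-1236 at 2 µM against PBS 9.

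Depth limits low members most: Ndufaf6, at 2.86 CPM in PBS, is the lowest of them there.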

Other observations

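Cox4i1 was at 912, 1274 and 719 CPM with TTR-1186 at 0.2 µM, a range that held all 3 libraries of Reference 4 at 0.2 µM (926, 1113 and 1141 CPM). With TTR-1186, 29 members lay wholly above and 1 wholly below at 2 µM against 0.2 µM, against 14% and 6.50% of all genes, although 0 members passed the threshold in limma there (22 at an unadjusted p under 0.05, DESeq2 1). Over all 9657 genes, 1415 had such an unadjusted p. In each of the 7 groups the library with the lowest mitochondrial rRNA share had the highest summed level of the 88 genes. With TTR-1186 this was replicate 2 at both doses. Its shares were 1.49% at 0.2 µM and 0.622% at 2 µM, and its sums 16313 and 16951 CPM. With TTR-1236 at 2 µM it was replicate 3 (0.278%, 18841.5 CPM), as with Reference 4 at 2 µM (0.383%, 17769 CPM). What lies behind this was not tested.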
